A study of Mus musculus with 8 samples.

Results

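Imprinted genes that act in fetal growth were followed in mouse corneas through 34 probe sets of 8 genes, out of 45101 probe sets on each array. The genes listed were the noncoding RNAs H19 and Meg3 and the protein-coding genes Dlk1, Peg3, Mest, Cdkn1c, Plagl1, Grb10 and Ndn, 9 in all. A probe set was taken when the platform annotation gave it exactly 1 symbol and that symbol was on the list. H19 is left without a probe set by this rule. The annotation lists 1 probe set for it, but names that one for H19 and for Mir675, a microRNA gene that lies inside H19, so it was not used. The other 8 genes had 11 probe sets (Meg3), 8 (Ndn), 5 (Peg3), 3 (Plagl1), 3 (Grb10), 2 (Dlk1), 1 (Mest) and 1 (Cdkn1c).

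Total RNA of corneas was hybridised to 8 one-colour Affymetrix arrays. There were 4 arrays of mice that overexpress TGF-beta, called TGFB here, and 4 of their wildtype littermates. The labels give no strain, age, TGF-beta isoform, promoter or cell type that makes the transgene product, and do not say whether an array holds 1 animal or several. The p-values therefore rest on how far these arrays differ, and that spread may be technical. Array numbers, 1 to 4 in each group, follow the order of the records and pair nothing.

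In an imprinted gene one parental copy is silenced by marks set in the germ line, so only the copy from the other parent is read. Dlk1, Peg3, Mest, Plagl1 and Ndn are read from the paternal copy, and H19, Meg3, Cdkn1c and, in most tissues outside the brain, Grb10 from the maternal copy. Many of these genes are abundant in fetal tissue, act on growth or cell number, and decline after birth. They have been described as a network of genes whose levels move together across tissues.

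The sequences upstream of 2 members are shown first because these 2 hold the same letters. Of the 9 genes, 7 had windows of 250 bases before to 50 after a start in a RefSeq promoter table (build GRCm38.p6), 11 windows in all; Cdkn1c and H19 had none. The palindrome TGACGTCA, the full cyclic AMP response element, lay in the Meg3 window at the outer start of the gene and in the Peg3 window. It was found in 1.79% of all 32851 windows, with 2 of the 11 member windows holding it, and it was chosen after the sequences had been seen. The stretches below end at the outermost start of each gene, run 5′ to 3′ on the strand of the gene, and have this palindrome in capitals.
Meg3, chr12:109540746-109540995, plus strand: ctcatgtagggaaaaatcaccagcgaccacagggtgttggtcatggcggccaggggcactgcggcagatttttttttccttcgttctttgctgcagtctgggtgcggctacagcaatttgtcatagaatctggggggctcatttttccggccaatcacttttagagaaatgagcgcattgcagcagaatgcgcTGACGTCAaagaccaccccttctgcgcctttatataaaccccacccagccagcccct
Peg3, chr7:6730463-6730669, minus strand: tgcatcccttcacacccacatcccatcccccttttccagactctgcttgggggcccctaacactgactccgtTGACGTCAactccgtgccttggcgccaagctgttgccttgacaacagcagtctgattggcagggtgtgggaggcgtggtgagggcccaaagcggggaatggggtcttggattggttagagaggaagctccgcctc

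Other motifs were searched on both strands of the same windows. The SMAD box CAGAC, letters that the proteins relaying TGF-beta signals bind, was in 5 of the 11 member windows and in 49.6% of all windows. The palindrome GGGGCCCC, a site of the zinc finger protein that Plagl1 encodes, was in 1 member window, that of Peg3, and in 1.08% of all windows. The TATA box TATAAA was in 1 member window, that of Meg3, and in 13.6% of all. A match describes the letters and is neither a site in use nor a cause. CG pairs, the letters on which imprinting marks are placed, numbered 45 in the window at the outer start of Grb10, 26 in that of Plagl1, 13 in those of Meg3 and Peg3, 11 in that of Ndn, 9 in that of Dlk1 and 8 in that of Mest, against a median of 7 over all windows. The inner windows held 1 (Meg3), 9 (Grb10) and 17 (both of Mest). Windows with at least 45 CG pairs made up 1.93% of the table, and those with at least 13 made up 37.9%.

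Meg3 and Mest also carry microRNAs within their gene bounds, shown for what else is read from these loci. None of them was measured by the probe sets used here. The seed, bases 2 to 8, is in capitals, and the 3 seeds differ.
mmu-miR-770-5p, in Meg3, chr12:109563710-109563731: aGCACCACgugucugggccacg
mmu-miR-1906, in Meg3, chr12:109544588-109544609: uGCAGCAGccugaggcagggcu
mmu-miR-335-5p, in Mest, chr6:30741314-30741336: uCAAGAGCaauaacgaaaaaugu

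Levels below are signals as deposited, or log2(signal + 16) where so named. A difference is TGFB minus wildtype on the log2(signal + 16) scale, which understates the change of dim probe sets. Each difference comes with its limma standard error (SE), a 95% interval in places, and a p-value adjusted over all 45037 probe sets tested. Means carry the SD of 4 arrays. The main probe set of a gene is the one with the highest mean over the 8 arrays. Probe sets differ in how strongly they bind, so no level of one gene is set against that of another.

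The tissue and the arrays were checked first. The corneal keratin gene Krt12 had a signal of 289 on TGFB 1, 562 on wildtype 4 and 3008 to 5766 on the other arrays. Pax6, another epithelial marker, had 127 on TGFB 1, 91.6 on TGFB 2, 206 on wildtype 4 and 590 to 1068 elsewhere. Not all epithelial markers followed. Krt5 was highest on TGFB 2 (6844) and TGFB 1 (6103) and lowest on wildtype 4 (2302). The keratocyte gene Kera had signals of 2073 to 8110 over the 8 arrays. All 10 corneal epithelial and all 10 keratocyte and fibroblast markers were measured, and none stayed under a signal of 16. The 3'/5' signal ratio of Gapdh, a measure of RNA decay, was highest on wildtype 4 (6.41), lowest on wildtype 1 (2.19) and 2.35 to 4.31 elsewhere. Every array also held skeletal muscle transcripts, with a summed signal of 15 marker genes of 21806 to 38909 in TGFB against 30053 to 39591 in wildtype. In such bulk RNA, fewer cells of a type and less RNA per cell cannot be told apart.

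No member probe set differed between TGFB and wildtype corneas past the threshold of adjusted p under 0.05. The count was 0 of 34, with 0% called over all 45037 probe sets, and the smallest adjusted p of a member was 0.837 (limma, Benjamini-Hochberg). At an unadjusted p under 0.05 there were 2 of 34, both higher in TGFB. Of all probe sets 2.7% passed as higher and 3.16% as lower. They belong to the neighbours Dlk1 and Meg3. No member's groups stood fully apart, against 1.47% of all probe sets apart and higher in TGFB and 1.81% apart and lower. The difference was above 0 for 23 probe sets and below 0 for 11, and above 0 for 51.6% of all probe sets. Of the 23 above 0, 10 read Meg3, and 5 of the 34 had a mean signal under 16. Without wildtype 1 the split was 18 above to 16 below 0. Over the main probe sets of the 8 genes the median difference was 0.099, beside -0.014 over all 18193 genes. Without wildtype 1 that median was -0.043.

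**Figure D1:**
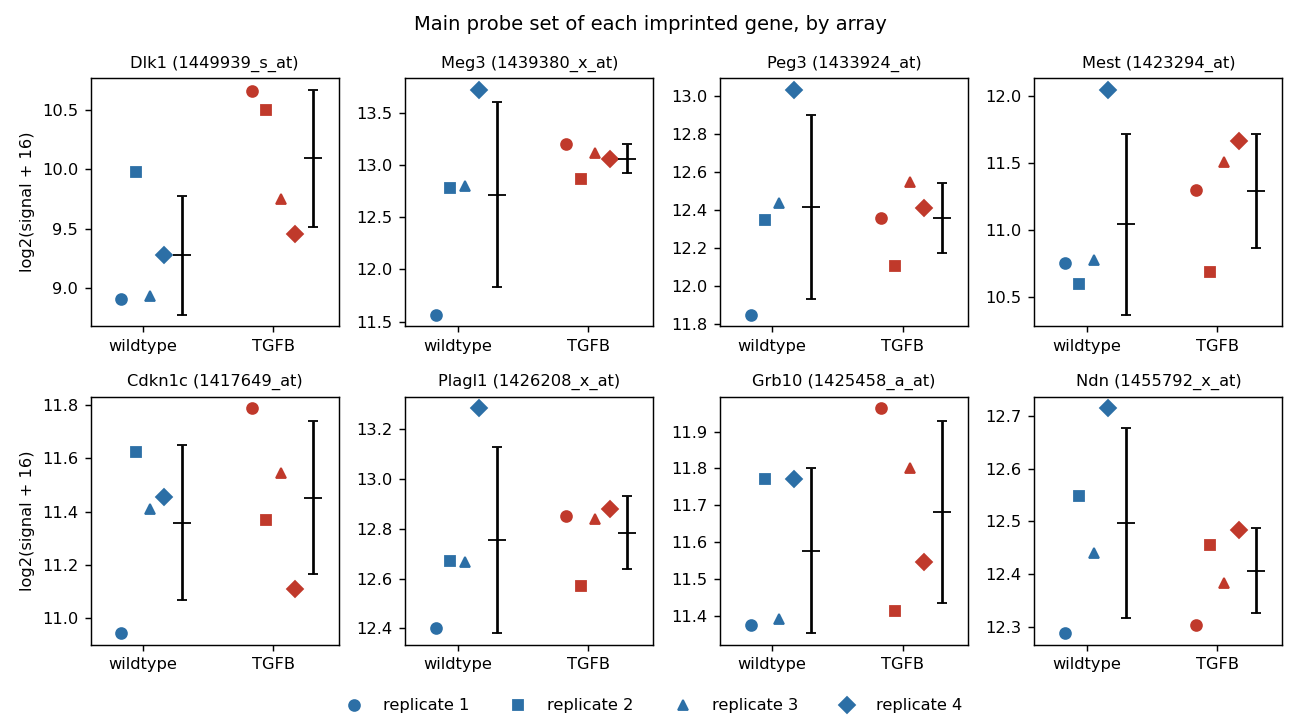
Levels of the main probe set of each of the 8 genes on every array, as log2(signal + 16), with a separate vertical scale in each panel. Marker shapes are replicate numbers, blue is wildtype, red is TGFB, and the black bars are the mean ± SD of 4 arrays; wildtype 1 is lowest in 7 of the 8 panels and wildtype 4 highest in 5.

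Dlk1 encodes a membrane-bound relative of the Notch ligands that holds back fat cell maturation and marks immature mesenchymal cells. Its main probe set (1449939_s_at) had signals of 1599, 1433, 845 and 687 in TGFB 1 to 4 and of 464, 993, 472 and 604 in wildtype 1 to 4. TGFB 1 and TGFB 2 were the highest, but wildtype 2 lay above TGFB 3 and TGFB 4, so the groups overlapped. The mean was 10.09 ± 0.58 in TGFB and 9.27 ± 0.50 in wildtype corneas, a difference of 0.82 (SE 0.33, 95% interval 0.08 to 1.56, limma adjusted p = 0.837). This was the smallest p-value of the members. TGFB was the higher in 14 of the 16 pairs of a TGFB and a wildtype array. The dimmer Dlk1 probe set (1442724_at) had signals of 195, 134, 168 and 142 across TGFB, with 85.8, 148, 69.0 and 173 across wildtype. Here wildtype 4 stood among the TGFB arrays, and the difference was 0.44 (SE 0.26). Leaving out single arrays, the difference of the main probe set ran from 0.63 to 1.05.

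TGFB 1, TGFB 2 and wildtype 2, the 3 arrays with the highest signals of the main Dlk1 probe set, are also those with cornified epidermis transcripts. All 7 of those markers were measured and none stayed under 16. Their summed signal was 38191, 45220 and 24637 on these arrays and 712 to 1551 on the other 5. The dimmer Dlk1 probe set did not follow these arrays, its highest signals being on TGFB 1 (195), wildtype 4 (173) and TGFB 3 (168). Without the 3 arrays with cornified transcripts the difference of the main Dlk1 probe set was 0.56 (limma adjusted p = 0.987). Where the cornified transcripts come from, and their part in the Dlk1 values, was not tested. Of 7 fat cell markers 5 were measured, and 3 of them stayed under a signal of 16 on every array. Fabp4, the brightest of them, had signals of 674 to 1545 on the TGFB arrays and of 255 to 916 on the wildtype arrays. Adipoq had a signal of 135 on TGFB 2 and of 1.05 to 26.6 on the other arrays.

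Meg3, a long noncoding RNA of the same imprinted domain as Dlk1 but read from the other parental copy, varied most from array to array. Its main probe set (1439380_x_at) had signals of 9406, 7479, 8887 and 8526 in TGFB corneas compared with 3013, 7014, 7145 and 13552 in wildtype. The 4 TGFB arrays lay close together, between a very low wildtype 1 and a very high wildtype 4. The mean was 13.06 ± 0.14 in TGFB and 12.72 ± 0.89 in wildtype corneas, a difference of 0.34 (SE 0.38, 95% interval -0.51 to 1.20, limma adjusted p = 0.930). Without wildtype 1 it was -0.041, without wildtype 4 it was 0.68, and without both, a setting chosen after the data were seen, it was 0.27. Of the 11 Meg3 probe sets 8 were above 0 without wildtype 1.

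The 11 Meg3 probe sets read one transcript family and are not 11 separate measurements. Of them 10 had a difference above 0, from 0.34 to 1.14, and 1 below 0 (1429256_at, -0.35, SE 0.22). The widest difference was that of 1436713_s_at, with signals of 372, 103, 331 and 240 in TGFB against 35.2, 99.9, 90.9 and 261 in wildtype (1.14, SE 0.52, adjusted p = 0.846). Wildtype 4 lay among the TGFB arrays there, and TGFB 2 beside wildtype 2 and wildtype 3. The one with an unadjusted p under 0.05 was 1428764_at, with signals of 167, 151, 230 and 123 against 67.0, 91.8, 156 and 115 (0.60, SE 0.25, unadjusted p = 0.0422, adjusted p = 0.840). The probe set that went the other way had signals of 62.8, 34.0, 72.3 and 49.8 across TGFB, with 61.7, 77.4, 97.3 and 56.6 across wildtype. It was the only Meg3 probe set on which wildtype 1 was not the lowest array. The other Meg3 probe sets gave 0.49 (1452905_at, SE 0.43), 0.65 (1452183_a_at, SE 0.47), 0.79 (1426758_s_at, SE 0.54), 0.63 (1452906_at, SE 0.61), 0.93 (1436057_at, SE 0.55), 0.71 (1429257_at, SE 0.33) and 0.36 (1428765_at, SE 0.27).

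**Figure D2:**
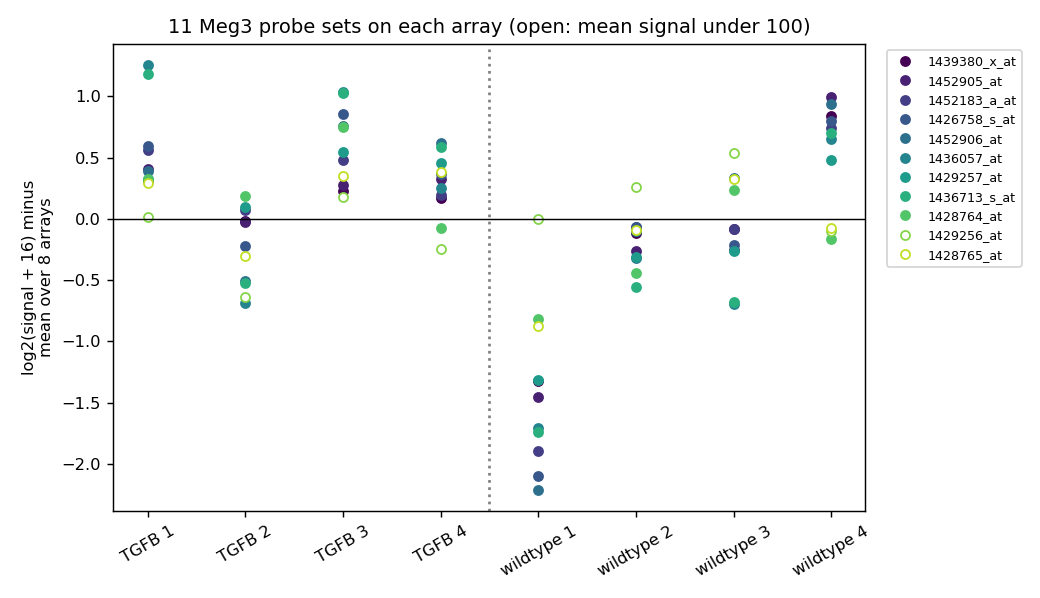
Each of the 11 Meg3 probe sets on each array, as log2(signal + 16) minus its own mean over the 8 arrays; the dotted line parts the TGFB from the wildtype arrays and open points are probe sets with a mean signal under 100. On wildtype 1 all probe sets but 1429256_at lie at their lowest; their highest points fall on wildtype 4, TGFB 3 or TGFB 1 for the 9 filled probe sets.

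Over the arrays the main Meg3 probe set spanned 2.16 on the log2 scale, and the 9 Meg3 probe sets with a mean signal of at least 100 spanned 1.57 to 3.14. Of all 14146 probe sets that bright, 8.07% spanned more than the main one, and the median span was 0.90. Rian, a noncoding RNA further along the same domain, had signals of 821, 535, 706 and 428 on the TGFB arrays; wildtype arrays had 283, 714, 506 and 776 (0.18, SE 0.33). Mirg, the host of a microRNA cluster there, had 83.4, 58.0, 49.7 and 32.7 against 16.6, 46.0, 50.3 and 38.9 (0.42, SE 0.28). Wildtype 1 was the lowest array for both, as it was for the main probe sets of Meg3 and Dlk1.

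Among the zinc finger genes, Peg3 encodes a nuclear protein that acts on growth and on survival after stress, and Plagl1 a transcription factor that binds other imprinted loci. The main Peg3 probe set (1433924_at) had signals of 5225, 4393, 5970 and 5432 in TGFB corneas compared with 3667, 5196, 5519 and 8375 in wildtype. The TGFB arrays lay within the range of the wildtype arrays, with a difference of -0.061 (SE 0.24, 95% interval -0.60 to 0.48, limma adjusted p = 0.985). A second probe set (1417355_at) gave 0.047 (SE 0.32). The dim 1417356_at gave 0.30 (SE 0.28), and 1447731_at and 1447732_x_at, both with a mean signal under 16, gave -0.25 (SE 0.16) and 0.071 (SE 0.12). The sign of the main Peg3 difference turned without TGFB 2 (0.022) and without wildtype 4 (0.15). The main Plagl1 probe set (1426208_x_at) had signals of 7371, 6057, 7317 and 7524 in TGFB against 5393, 6498, 6477 and 9959 in wildtype. Again TGFB lay inside the wildtype range, and the difference was 0.030 (SE 0.20, 95% interval -0.41 to 0.47). Without wildtype 1 it was -0.088, without TGFB 4 -0.0017, without wildtype 3 about 0, and without wildtype 4 it was 0.21. The other Plagl1 probe sets, 1438588_at and 1450533_a_at, gave 0.40 (SE 0.41) and -0.023 (SE 0.30), at signals of 54.1 to 250 and 7.47 to 42.1.

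Mest encodes a protein with a hydrolase fold that is found in mesodermal and fat tissue. Its only probe set (1423294_at) had signals of 2503, 1634, 2890 and 3224 across TGFB, with 1706, 1533, 1734 and 4210 across wildtype. TGFB 1, TGFB 3 and TGFB 4 lay above 3 of the wildtype arrays, while TGFB 2 lay with those 3 and wildtype 4 above all. The difference was 0.25 (SE 0.34, 95% interval -0.52 to 1.01, limma adjusted p = 0.948). Without wildtype 4 it was 0.58 (SE 0.23, adjusted p = 0.393). Over all settings tried the adjusted p of Mest ran from 0.393 to 1.00.

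Cdkn1c encodes p57, an inhibitor of cyclin-dependent kinases that takes cells out of the cycle. Its probe set (1417649_at) had signals of 3519, 2629, 2970 and 2193 on the TGFB arrays; wildtype arrays had 1953, 3140, 2705 and 2793. The groups were mixed throughout, with a difference of 0.094 (SE 0.20, 95% interval -0.35 to 0.54, limma adjusted p = 0.967). Without wildtype 1 it was -0.044 and without TGFB 1 it was -0.018.

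Grb10 encodes an adaptor that binds insulin and IGF1 receptors and dampens their signal. Its main probe set (1425458_a_at) had signals of 3978, 2713, 3555 and 2976 in TGFB corneas compared with 2639, 3478, 2670 and 3482 in wildtype. The arrays of each group fell into a higher and a lower pair, and the difference was 0.10 (SE 0.17, 95% interval -0.29 to 0.50, limma adjusted p = 0.958). The other 2 Grb10 probe sets, 1430164_a_at and 1425457_a_at, with mean signals under 100, gave 0.028 (SE 0.25) and -0.12 (SE 0.25).

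Ndn encodes necdin, a MAGE family protein that restrains the cycle of neurons and muscle precursors. Its main probe set (1455792_x_at) had signals of 5037, 5601, 5323 and 5710 in TGFB against 4983, 5971, 5541 and 6709 in wildtype. The arrays differed little, the highest being 1.35 times the lowest. The difference was -0.092 (SE 0.14, 95% interval -0.40 to 0.22, limma adjusted p = 0.950). The 5 Ndn probe sets with a mean signal of at least 100 spanned 0.24 to 0.74 on the log2 scale over the arrays, and 1435383_x_at, at 3811 to 4491, spanned less than 99.6% of all probe sets that bright. The intervals of these 5 stayed within -0.47 and 0.38. Apart from the main one they gave -0.14 (1437853_x_at), -0.037 (1435383_x_at), -0.052 (1435382_at) and -0.0045 (1415923_at), with SEs of 0.12 to 0.17. The other 3 Ndn probe sets (1438939_x_at, 1438978_x_at and 1456575_at) had mean signals under 16 and gave 0.34, -0.046 and 0.11.

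**Figure D3:**
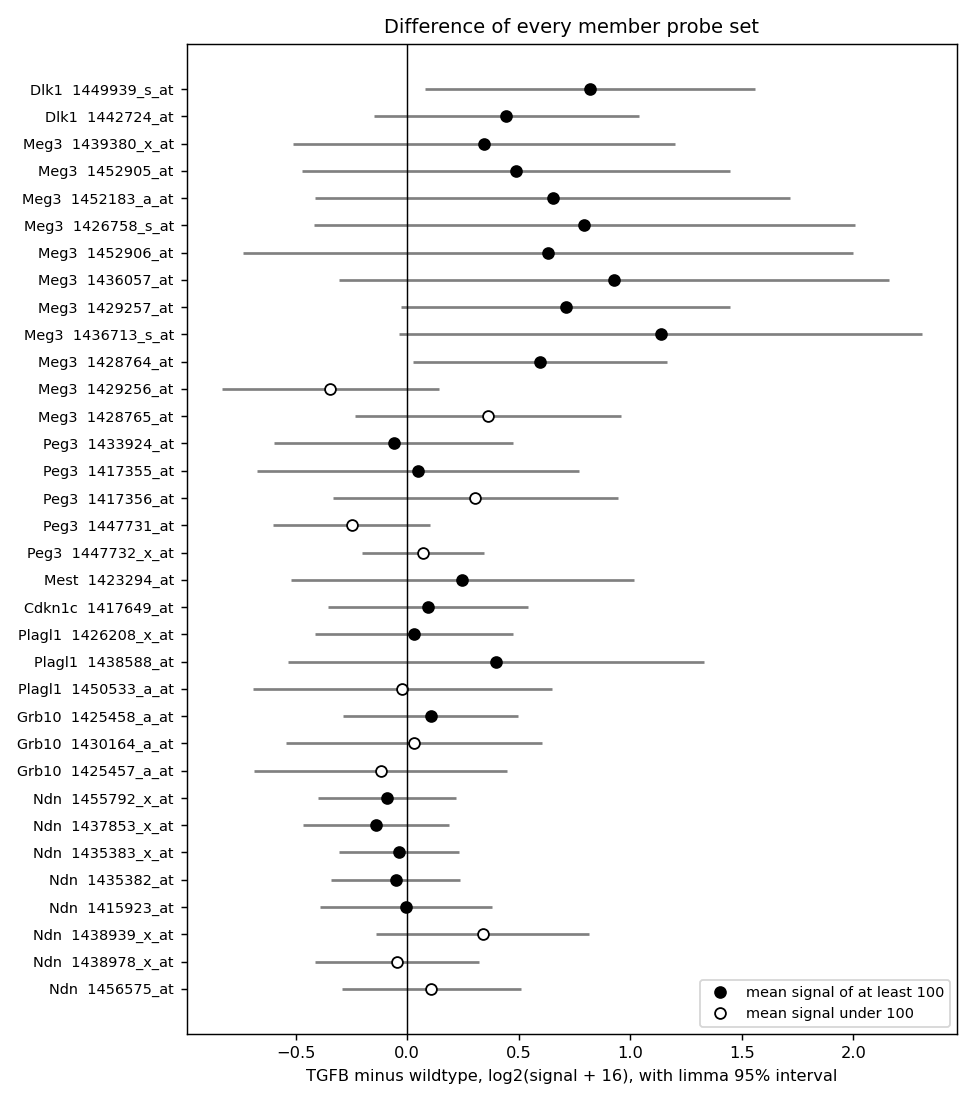
TGFB minus wildtype difference of all 34 probe sets on the log2(signal + 16) scale, with the 95% interval of limma; filled points have a mean signal of at least 100. The intervals of 32 probe sets cross 0, all but 1449939_s_at of Dlk1 and 1428764_at of Meg3, and those of the bright Ndn probe sets are the narrowest of the filled points.

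The precision sets what can be said of each gene. On this scale a doubling of a bright gene is a difference of about 1. The interval of the main probe set stays inside that size in both directions for Peg3, Cdkn1c, Plagl1, Grb10 and Ndn. It reaches 1.56 for Dlk1, 1.20 for Meg3 and 1.01 for Mest, so their intervals include a doubling in TGFB corneas. By parental copy, the 3 maternally read genes had differences of 0.094 to 0.34 (median 0.10) and the 5 paternally read genes of -0.092 to 0.82 (median 0.030).

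Much of the spread of the members ran between 2 arrays of the same group. Wildtype 1 was the lowest array for 7 of the 8 main probe sets, all but that of Mest, and for 18 of the 23 member probe sets with a mean signal of at least 100 (78.3%). Over all probe sets that bright it was the lowest for 19.3%. Of those 18 probe sets 9 read Meg3. Wildtype 1 stood at 0.353 of the median of the other 7 arrays for Meg3, 0.549 for Dlk1, 0.675 for Peg3, 0.682 for Mest, 0.699 for Cdkn1c, 0.737 for Plagl1, 0.759 for Grb10 and 0.890 for Ndn. Wildtype 4 was the highest array for 5 main probe sets, those of Meg3, Peg3, Mest, Plagl1 and Ndn, and for 11 of the 23 bright ones (47.8%, against 20.1% of all that bright). It stood at 2.43 times the median of the others for Mest, 1.81 for Meg3, 1.60 for Peg3, 1.53 for Plagl1 and 1.21 for Ndn, but at 0.715 for Dlk1.

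**Figure D4:**
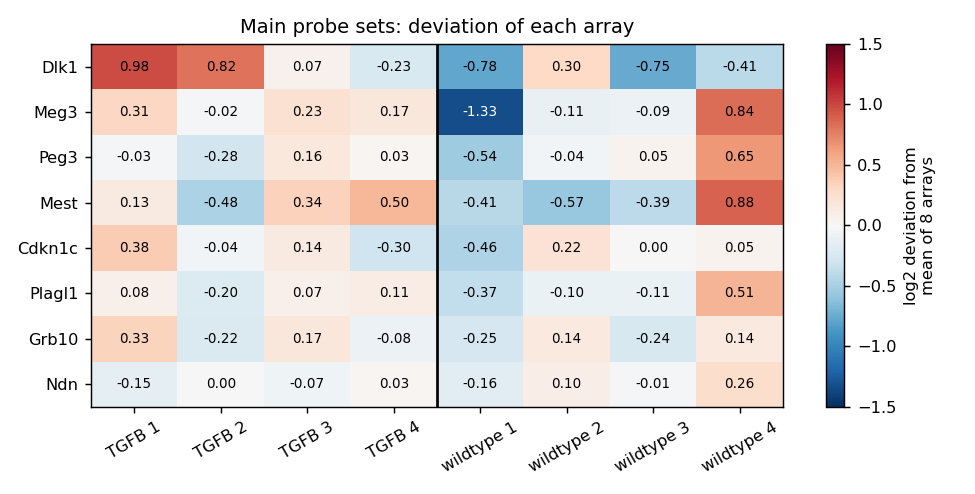
Deviation of each array from the mean of the 8 arrays for the 8 main probe sets, in log2(signal + 16), red above and blue below; the black line parts TGFB from wildtype arrays. Wildtype 1 is below the mean for all 8 genes, down to -1.33 for Meg3, wildtype 4 is above it for all but Dlk1, and Dlk1 is highest on TGFB 1 (0.98) and TGFB 2 (0.82).

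The count of members at an unadjusted p under 0.05 moved with these 2 arrays. Without wildtype 1, 0 of 34 probe sets had an unadjusted p under 0.05, with 1.85% of all probe sets passing it as higher and 2.86% as lower. Without wildtype 4, 8 of 34 did, all higher in TGFB, with 5.88% of all probe sets passing as higher and 5.78% as lower. Of these 8, 6 read Meg3, 1 Dlk1 and 1 Mest, and the smallest adjusted p was 0.268. With both arrays left out, a setting chosen after the data were seen, the difference was 0.64 for Dlk1, 0.60 for Mest, 0.27 for Meg3, 0.12 for Plagl1 and 0.10 for Grb10, and below 0 for Peg3 (-0.036), Cdkn1c (-0.065) and Ndn (-0.088). None of these passed (limma adjusted p 0.637 or higher).

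Other transcripts set the same 2 arrays apart. On wildtype 1 the myosins of adult fast muscle were high. Myh1 had a signal of 3936 there and 25.5 to 335 elsewhere, Myh2 2980 against 49.3 to 500, and Myh4 331 against 0.508 to 17.1. The myosins of developing muscle were not: Myh8 had 3848 on wildtype 1 and 2065 to 7541 elsewhere, and Myh3 3669 against 4354 to 6628. Of the 19 measured growth genes that are not imprinted, 7 were lowest on wildtype 1, among them Hmga2 (29.1 against 137 to 306), Igf2bp3 (221 against 449 to 684) and Sox11 (241 against 337 to 1378), and 1 was highest there, Mdk (4172 against 1512 to 3649). The 7 include Lin28b, with signals under 16 on every array. Of all probe sets with a mean signal of at least 100, 19.3% were lowest on wildtype 1. In the other gene lists 10 of 25 genes of the members' domains were lowest there and 3 highest. For imprinted genes of other domains these counts were 6 and 2 of 24, and for partners and targets 3 and 3 of 27. The muscle factor Myog (106 against 200 to 519) was also lowest on wildtype 1. The genes named here were picked after their values were seen. Of the 14 marker lists, 5 had their highest summed signal on wildtype 1. These were pigment cells (32187 against 3214 to 25665 elsewhere), retina (3430 against 80.1 to 469) and leukocytes (4391 against 1674 to 3632). The others were Schwann cells (3748 against 2126 to 2852) and smooth muscle and pericytes (11466 against 6920 to 11186, barely apart). Csf1r alone gave 3372 of the leukocyte sum and Pmp22 2645 of the Schwann cell sum. Of all probe sets with a mean signal of at least 100, 18.8% were highest on wildtype 1. The sum for cornified epidermis was lowest there (712). On wildtype 4 the 10 keratocyte and fibroblast markers summed to 45137, against 27771 to 32225 on the other arrays, and the 10 corneal epithelial markers to 19332, against 23102 to 35402. Kera, Lum, Ogn and Col3a1 were each highest on wildtype 4 and carried most of the keratocyte sum. Col6a1 was lowest there (1305 against 2593 to 4884), and the rest of that list were neither. Among the epithelial markers Clu was highest on wildtype 4 (8142 against 2502 to 7536). The Gapdh 3'/5' ratio also had its lowest value on wildtype 1 and its highest on wildtype 4. The part of these transcripts and of the RNA quality of these arrays in the members' values was not tested.

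The genes most like the members were sought among 8787 genes with a mean signal of at least 100. Likeness was Pearson's r over the 8 arrays with the mean of the 8 standardised member profiles, a description that carries no p. The members did not all share this mean profile. The main Dlk1 probe set had r = 0.65 with Cdkn1c, 0.51 with Grb10, 0.34 with Meg3, 0.017 with Plagl1, -0.091 with Peg3, -0.10 with Mest and -0.15 with Ndn. Between the other members r ran from 0.077 (Mest and Cdkn1c) to 0.95 (Peg3 and Plagl1). The 8 nearest were Vash2 (r = 0.951), the angiotensin receptor Agtr2 (0.947), Atp9b (0.945), LOC102631979 (0.941), the lysosomal membrane gene Lamp2 (0.940), Mfsd10 (0.939), Ufd1 (0.939) and Chodl (0.939). Agtr2, a receptor abundant in fetal mesenchyme, had signals of 1800, 566, 2044 and 1775 across TGFB, with 173, 1044, 708 and 2755 across wildtype. Its lowest array was wildtype 1 and its highest wildtype 4, and its difference was 0.82 (SE 0.74). The 5 most opposed were the endothelial gene Plvap (-0.978), Tmc6 (-0.955), Pnp (-0.953), Eogt (-0.940) and St3gal6 (-0.939). Plvap had 223, 307, 239 and 262 on the TGFB arrays; wildtype arrays had 426, 285, 329 and 157, with the same 2 arrays at the ends in the opposite order. As all r values are read from the same 8 arrays, wildtype 1 and wildtype 4 weigh heavily in each.

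Other imprinted genes were taken from lists drawn up by gene function. A probe set signal does not tell the parental copies apart, so whether a listed gene is imprinted in the cornea was not measured. Of 28 genes in the members' own domains 25 were measured, and 0 passed in either direction. The differences were above 0 for 18 and below 0 for 7, with a median of 0.096. Igf2, the fetal growth factor beside H19, had signals of 7747, 6689, 7911 and 7369 in TGFB corneas compared with 5933, 7134, 7642 and 8148 in wildtype (0.049, SE 0.14, limma adjusted p = 0.979). Wildtype 1 was its lowest and wildtype 4 its highest array too. The 4 with the smallest p were Ins2 (-0.77, SE 0.28), Mirg (given above), Snrpn (-0.24, SE 0.17) and the deubiquitinase gene Usp29 (-0.31, SE 0.21). All 4 were dim, with mean signals of 4.76 to 47.0.

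Of 29 imprinted genes of other domains 24 were measured, again with 0 passing in either direction, 10 above 0 and 14 below 0 (median -0.064). Unadjusted, 1 gene was higher and 3 were lower at p under 0.05, beside 2.7% and 3.16% of all probe sets. The lists take the brightest probe set of each gene. In a fit of the brightest probe set of every gene, 7.08% had an unadjusted limma p under 0.05 in either direction. By the same count the genes of the members' domains gave 0 higher and 1 lower, the partners and targets 1 and 0, and the growth genes that are not imprinted 0 and 1. Sgce, the epsilon-sarcoglycan gene, had signals of 635, 528, 537 and 556 in TGFB against 932, 691, 664 and 769 in wildtype (-0.42, SE 0.15, limma adjusted p = 0.837). Commd1 had 552, 702, 789 and 744 against 906, 934, 902 and 978 (-0.42, SE 0.14), and the exchange factor gene Rasgrf1 61.5, 65.1, 79.0 and 75.0 against 106, 94.1, 155 and 124 (-0.64, SE 0.17). In this list 4 of 24 genes had groups that did not overlap, all lower in TGFB. They are these 3 and the proteoglycan gene Dcn, with 6594, 6078, 6359 and 6327 in TGFB against 8099, 6764, 7097 and 10643 in wildtype (-0.34, SE 0.16). Of all probe sets 1.81% were apart and lower, but that share counts dim probe sets and several for a gene. The share among the brightest probe sets of all genes was not computed, so the 4 of 24 has no like share beside it. The protease inhibitor gene Tfpi2 had 102, 83.2, 312 and 212 against 63.5, 55.4, 48.4 and 93.6, with overlap (1.11, SE 0.37).

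Of 29 partners and targets of the member proteins 27 were measured, with 0 passing, 12 above 0 and 15 below 0 (median -0.017). The 4 with the smallest p were Cdkn1a, the p21 inhibitor related to Cdkn1c (0.92, SE 0.35), the fat cell factor Pparg (0.69, SE 0.40, signals of 1.44 to 46.0), the growth factor Igf1 (-0.37, SE 0.27) and the insulin receptor Insr (-0.20, SE 0.15). Notch1, the receptor that Dlk1 is held to act on, had a difference of 0.14 (SE 0.36), and Igf1r, a receptor that Grb10 binds, -0.017 (SE 0.24). Of 22 fetal and juvenile growth genes that are not imprinted 19 were measured, with 0 passing, 11 above 0 and 8 below 0 (median 0.035). The heparin-binding growth factor midkine, Mdk, had signals of 1934, 1512, 2005 and 2310 across TGFB, with 4172, 2408, 3649 and 2610 across wildtype (-0.70, SE 0.21, limma adjusted p = 0.834), without overlap. Hmga2 had a difference of 0.94 (SE 0.49), Igf2bp3 0.49 (SE 0.27) and the cell cycle kinase Cdk1 -0.43 (SE 0.25).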

How the data were processed

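Total RNA of 8 corneal samples was measured on Affymetrix arrays. The authors deposited linear probe set intensities; the tool behind them is "not given in the sources used here". Each array has a 2% trimmed mean of 150, so no further normalization was applied. Medians ran from 26.3 on wildtype 1 to 34.4 on wildtype 3. No depth applies to arrays, and the number of arrays limits the precision.

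Values were taken as log2(signal + 16). The 64 control probe sets were left out. The other 45037 were fitted by lmFit and eBayes of limma 3.58.1 (R 4.3.3; 2 groups of 4, two-sided), with Benjamini-Hochberg adjustment over all of them and a threshold of 0.05. The fit was tested on simulated data with independent noise and planted shifts wider than any member difference. That test does not cover changes of the size seen in the members. A platform annotation gave 1 symbol to 34945 probe sets, several to 932 and none to 9160, and 34741 were matched by Entrez ID to current RefSeq symbols (GRCm38.p6). The gene level used the probe set with the highest mean.

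Members, gene lists, tests and alternatives were chosen with earlier results of these data known. Named are all member probe sets, the 4 genes of smallest p in each of 4 gene lists, and the genes nearest to and farthest from the mean member profile; others were picked after their values were seen. Marker lists cover 14 cell types or tissues. Of the listed genes, those without a probe set of their own are not analysed here. As alternatives, the offset was set to 1 or 32, arrays were quantile normalized or centred on medians, and fits were rerun with these changes: leaving out probe sets under the 40th percentile, gene-level units, a variance trend, robust eBayes, array weights and leaving out arrays. Figures were drawn with matplotlib.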

Additional observations from a re-analysis of the deposited data

Results flagged for a closer look

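Within a group of 4 arrays, 3 of 68 tested sets of values held an array far from the other 3, by Dixon's criterion, about as many as chance gives at 1 in 20. Mest had a signal of 4210 on wildtype 4, against 1533 to 1734 on the other wildtype arrays. The main Plagl1 probe set had 6060 on TGFB 2 against 7317 to 7524 on the other TGFB arrays, and the dim Meg3 probe set 1428765_at had 37.4 on TGFB 2 against 64.6 to 69.9.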

How the results depend on the processing

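No paired analysis was possible because the labels give the groups no shared replicate numbers. The count of member probe sets past adjusted p under 0.05 was 0 under every alternative run, leave-one-out included (0 to 0), and 2 at an unadjusted p. Members with an unadjusted p under 0.05 were fewest with an offset of 1 (0, beside 5.38% of all probe sets) and without wildtype 1 (0, beside 4.70%). They were most without wildtype 4 (8, beside 11.7% of all). Median centring gave 4, beside 5.63% of all, and array weights 4, beside 9.86% of all. The median difference of the 8 genes ran from 0.070 to 0.12 with other processing, and from -0.043 to 0.19 with single arrays left out. With single arrays left out the differences ran from -0.044 to 0.21 for Cdkn1c, -0.041 to 0.68 for Meg3, -0.25 to 0.15 for Peg3, -0.088 to 0.21 for Plagl1, -0.16 to -0.019 for Ndn, 0.011 to 0.19 for Grb10, 0.099 to 0.58 for Mest and 0.63 to 1.05 for Dlk1. Signs also turned for Peg3 with probe sets averaged per gene (0.023), with array weights (0.039) and without the 3 arrays with cornified transcripts (0.041), for Ndn with the same averaging (0.0095), and for Cdkn1c without wildtype 1 and wildtype 4 (-0.065); the cause was not tested. Dlk1, Mest and Grb10 kept their sign in every setting run. Members with a mean signal under 16 carry no usable direction.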
